A study of Mus musculus with 6 samples.

Results

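Neurogenic transcription factors were followed in primary neurospheres, which are spheres of cells that grow in suspension from single neural precursors. The set was 9 genes: Neurog2, Neurod1, Neurod4, Eomes, Prox1, Tbr1, Sox11, Sox4 and Insm1. They were chosen by name, each through the probe set that carried its symbol alone in the platform annotation, and 9 of 9 were found, with 1 probe set each, among 19937 named genes. All cells came from the hippocampus of male C57BL/6J mice, 8 to 12 weeks old, and grew with EGF and bFGF. In 3 samples 10 µM norepinephrine, a monoamine transmitter, had been added, and in 3 samples 15 mM KCl, which depolarises excitable cells. Spheres of both groups were collected on day 14, and each sample was read on 1 array. The sample titles of both groups name the spheres as big neurospheres, so the values need not hold for smaller ones. Untreated spheres were not analysed here, and which of the 2 treatments moved a gene therefore cannot be told. Each sphere sample mixes stem cells, progenitors and their progeny, so fewer cells of a type and less RNA per cell cannot be told apart.

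In the hippocampus, newborn neurons are made through a sequence of transcription factors. Proneural basic helix-loop-helix (bHLH) factors such as Neurog2 bind DNA at E-boxes as partners of E proteins and switch on later factors, among them Eomes in intermediate progenitors and Neurod1 in neuroblasts. Prox1 then fixes granule cell identity, Tbr1 marks postmitotic glutamatergic neurons, and the SoxC factors Sox4 and Sox11 open neuronal genes. Id proteins and Hes and Hey repressors hold this programme back in stem cells.

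The stretches of DNA upstream of the gene starts are shown for the members on which the results below turn: Prox1 and Sox4, the members with the widest range over the arrays, Sox11, the close relative of Sox4, and Eomes, whose groups did not overlap. They are RefSeq promoter windows of the GRCm38.p6 build, cut to the 250 bases before the start, 5′ to 3′ on the gene's strand, with every E-box, CANNTG, in capitals.
Prox1 (chr1:190170828-190171077, minus strand): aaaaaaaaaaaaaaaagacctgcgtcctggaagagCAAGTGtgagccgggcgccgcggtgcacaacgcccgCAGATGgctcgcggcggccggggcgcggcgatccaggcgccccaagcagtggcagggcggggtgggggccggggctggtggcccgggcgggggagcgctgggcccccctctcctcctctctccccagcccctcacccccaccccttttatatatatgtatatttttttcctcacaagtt
Sox4 (chr13:28953700-28953949, minus strand): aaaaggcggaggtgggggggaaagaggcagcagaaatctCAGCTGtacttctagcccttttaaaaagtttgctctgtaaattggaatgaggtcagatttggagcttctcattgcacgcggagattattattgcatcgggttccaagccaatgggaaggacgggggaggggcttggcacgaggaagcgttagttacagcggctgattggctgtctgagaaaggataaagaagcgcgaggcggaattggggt
Sox11 (chr12:27342719-27342968, minus strand): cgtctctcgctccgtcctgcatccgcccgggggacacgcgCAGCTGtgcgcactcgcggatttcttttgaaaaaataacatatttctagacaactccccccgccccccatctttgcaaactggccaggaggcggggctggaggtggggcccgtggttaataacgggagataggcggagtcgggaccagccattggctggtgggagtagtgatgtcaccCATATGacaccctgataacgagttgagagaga
Eomes (chr9:118477939-118478188, plus strand): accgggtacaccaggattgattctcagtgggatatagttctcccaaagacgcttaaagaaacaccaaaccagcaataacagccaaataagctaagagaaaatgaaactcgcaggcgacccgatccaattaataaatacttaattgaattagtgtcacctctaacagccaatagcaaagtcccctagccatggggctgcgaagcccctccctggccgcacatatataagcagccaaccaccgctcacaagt

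Windows were found by symbol for 8 members, all but Insm1, and made 10 windows in all, since Prox1 and Neurod4 had 2 starts each. Letters were searched on both strands, and CAGATG and CAGCTG are forms of CANNTG. An E-box lay in 5 of these 10 windows, those of Neurod1, Tbr1, Sox11 and Sox4 and 1 of Prox1, against 66.2% of the 32851 windows of all genes. CAGATG, which neurogenins and Neurod1 prefer, lay in 1 window, that of Prox1 shown above, and in 14.4% of all windows. CAGCTG, a form that reads the same on both strands, lay in 2, the Sox4 and Sox11 windows. Its first base was at -211 in Sox4 and at -210 in Sox11 relative to the start, and 13% of all windows held it. The Sox core ACAAAG lay in the Tbr1 window and the second Prox1 window, which is 2 of 10, against 16.5% of all windows. The T-box letters AGGTGTGA lay in 0 of 10 and in 1.12% of all windows. The Eomes window held none of these letters. These matches describe the letters of the windows only.

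Facts of the arrays that touch the values come first. Values are given on the log2 scale, each from 1 probe set, and with 3 arrays a group their precision is limited. The array of KCl replicate 1 stood apart, with a standard deviation of 1.38 over all named probe sets against 1.62 to 1.78 on the other 5. It read dim probe sets high and bright ones low. Among the dimmest 10% its median distance from the mean of KCl replicates 2 and 3 was 0.50, and among the brightest 10% it was -0.63. Of the stem and progenitor markers that define neurospheres, such as Nes, Vim, Sox2 and Fabp7, 9 of 10 read above the median brightness of named probe sets. So did 8 of 10 astrocyte, 5 of 10 measured mature neuron and 4 of 8 measured oligodendrocyte lineage markers. Of microglia markers 2 of 8 did, and of endothelial and mural markers 1 of 8. Of the members, 4 read under the 30th percentile of brightness of named probe sets. Neurod1 stood at percentile 8.5, Neurod4 at 8.6, Eomes at 22.2 and Tbr1 at 24.4. Brightness also depends on the probes, and whether a probe set lay above background could not be assessed.

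The comparison of the treatments asked whether the neurogenic programme differed between big neurospheres grown with norepinephrine and those grown with KCl. No neurogenic factor differed beyond the threshold. With p-values from limma, adjusted by Benjamini-Hochberg over 21640 probe sets, 0 of 9 members were called, where 0% of all probe sets were called, and the members' adjusted p ran from 0.939 to 0.988. At an unadjusted p under 0.05 there were also 0 of 9, against 3.43% of all probe sets. The differences, norepinephrine minus KCl, ran from -0.26 for Eomes to 0.27 for Prox1, and 4 members lay above 0 and 5 below. Their median was -0.07, as was that of all genes tested, of which 37.8% lay above 0.

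The proneural bHLH factors come first in the cascade. Neurog2, which commits forebrain progenitors to the glutamatergic neuron fate, read 6.64, 6.30 and 6.54 with norepinephrine, against 6.95, 6.24 and 6.59 with KCl, in the order of replicates 1 to 3. The highest and the lowest value were both KCl samples, and the groups overlapped. The difference was -0.10 ± 0.23 (log2 difference ± SE, n = 3 per group), with a 95% interval from -0.62 to 0.43. It was 0.08 without KCl replicate 1 and 0.01 after a further quantile normalization.

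Neurod1, needed for the survival and maturation of adult-born granule neurons, read 4.94, 5.41 and 5.14 with norepinephrine, against 5.54, 4.77 and 4.87 with KCl. KCl replicate 1 was above every norepinephrine sample and the other KCl samples were below them all. The difference was 0.11 ± 0.25 on 6 arrays. Without KCl replicate 1 it was 0.34 ± 0.19, with a 95% interval from -0.08 to 0.77. Neurod4, a bHLH factor of the same family that promotes neuronal fate, read 5.15, 4.96 and 5.04 with norepinephrine, against 5.35, 4.92 and 5.29 with KCl. All 3 norepinephrine values lay between the KCl extremes. Its difference was -0.14 ± 0.20, and 0.02 after a further quantile normalization.

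The T-box factors mark later steps of the same lineage. Eomes, also called Tbr2, the marker of intermediate progenitors, read 6.01, 5.98 and 5.89 with norepinephrine, against 6.50, 6.08 and 6.08 with KCl. It was the 1 member of 9 whose groups did not overlap, a pattern that 9.13% of all probe sets showed, 4.77% with norepinephrine lower. The gap between the nearest samples was small beside the lead of KCl replicate 1. The difference was -0.26 ± 0.20, 0.835-fold, with a 95% interval from -0.71 to 0.18 (limma adjusted p = 0.939). Without KCl replicate 1 it was -0.12 ± 0.16. After a further quantile normalization it was -0.13, and the groups overlapped. Norepinephrine replicate 2 then read 6.12 and KCl replicate 3 read 6.03. Tbr1, a factor of postmitotic glutamatergic neurons, read 6.12, 6.22 and 6.16 with norepinephrine, against 6.62, 6.00 and 6.09 with KCl. The norepinephrine samples lay close together, with an SD of 0.05 against 0.34 in KCl. The difference of Tbr1 was -0.07 ± 0.22, 0.12 without KCl replicate 1 and 0.05 after a further quantile normalization.

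**Figure D1:**
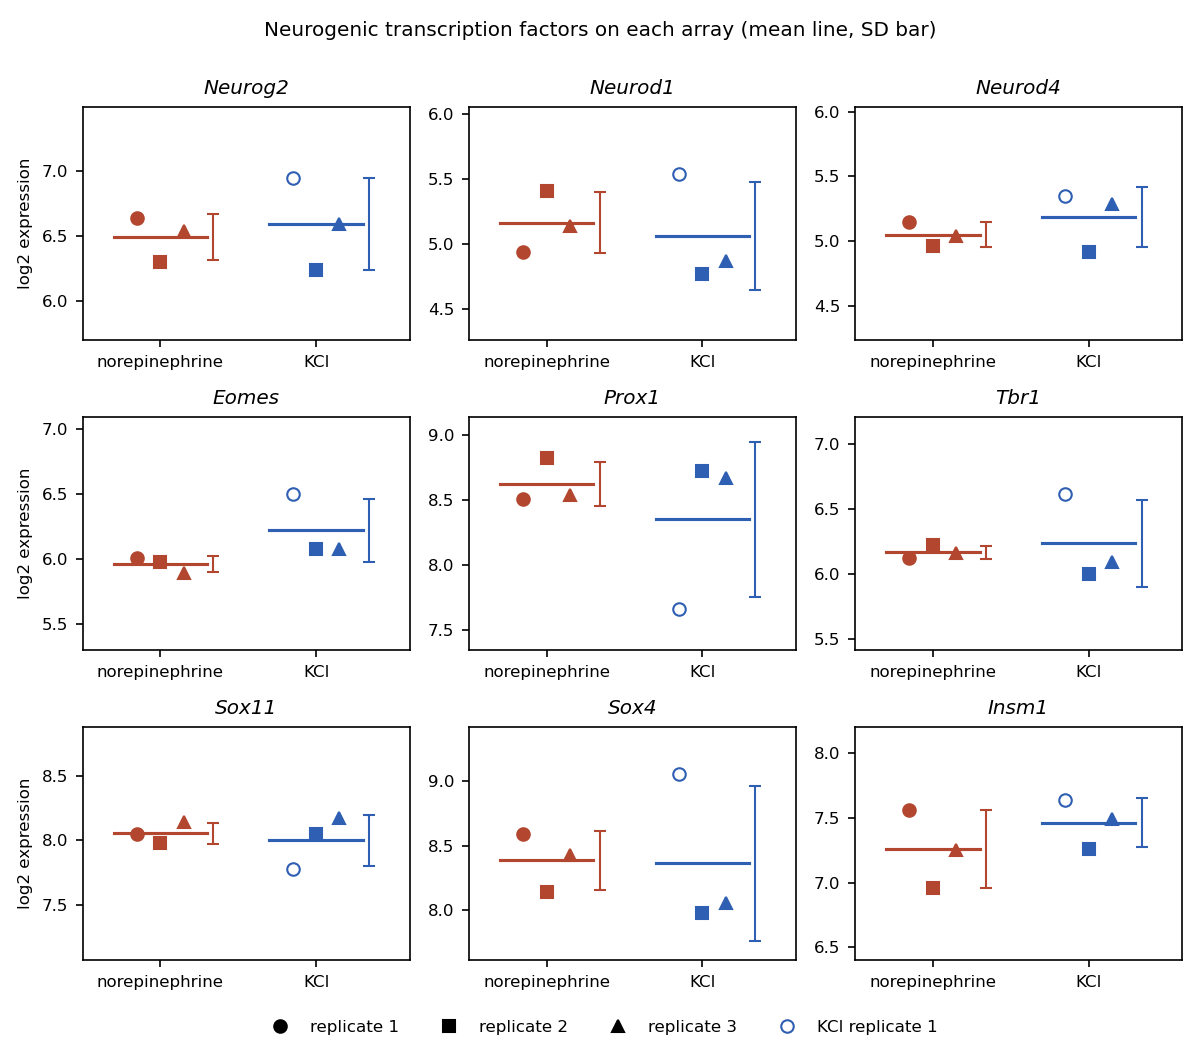
Log2 expression of the 9 neurogenic factors on each array, norepinephrine samples in red and KCl samples in blue, with the group mean as a line and the SD as a bar (n = 3 per group). The vertical axis spans the same log2 distance in each panel. The open circle is KCl replicate 1, which is the highest or the lowest of the 6 values in every panel.

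Prox1, the homeobox factor that specifies and maintains dentate granule neurons, had the widest range of the members, 1.16. It read 8.51, 8.82 and 8.54 with norepinephrine, against 7.66, 8.72 and 8.67 with KCl. The low value of KCl replicate 1 stood alone, and the other 5 samples lay between 8.51 and 8.82. The difference was 0.27 ± 0.30, with a 95% interval from -0.40 to 0.95, which is 0.756-fold to 1.93-fold. Without KCl replicate 1 the difference was -0.07 ± 0.17, so its direction turned. Among 13947 other genes above the 30th percentile of brightness, those closest to its values, once each gene was centred on its mean, were Psmd2, a proteasome subunit, and Diaph3, a formin. The root mean square distances over the 6 arrays were 0.03 and 0.05 log2 units. Psmd2 read 9.34 on KCl replicate 1, against 10.16 to 10.53 on the other arrays.

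The SoxC factors had KCl replicate 1 at opposite ends. Sox4, which with Sox11 activates genes of immature neurons, read 8.59, 8.14 and 8.43 with norepinephrine, against 9.05, 7.98 and 8.06 with KCl. KCl replicate 1 was the highest sample, while KCl replicates 2 and 3 lay below every norepinephrine sample. The difference was 0.02 ± 0.30 on 6 arrays and -0.12 after a further quantile normalization. Without KCl replicate 1 it was 0.36 ± 0.19, 1.29-fold, with a 95% interval from -0.06 to 0.78. The genes closest to the pattern of Sox4 were Bhlhb9 and Gm1673, at distances of 0.06 and 0.08. Sox11 read 8.05, 7.98 and 8.14 with norepinephrine, against 7.78, 8.05 and 8.17 with KCl. It had the narrowest range of the members, 0.39, and KCl replicate 1 was its lowest sample. The difference of Sox11 was 0.06 ± 0.19, with a 95% interval from -0.37 to 0.49, and -0.05 without KCl replicate 1.

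Insm1, a zinc-finger factor that promotes the formation of intermediate progenitors, read 7.56, 6.96 and 7.25 with norepinephrine, against 7.64, 7.26 and 7.49 with KCl. It was the 1 member with a larger spread among norepinephrine samples, at an SD of 0.30 against 0.19 in KCl. Its lowest value was that of norepinephrine replicate 2. The difference was -0.21 ± 0.22, with a 95% interval from -0.71 to 0.29. Leaving out norepinephrine replicate 2 gave -0.06, and leaving out KCl replicate 1 gave -0.12.

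**Figure D2:**
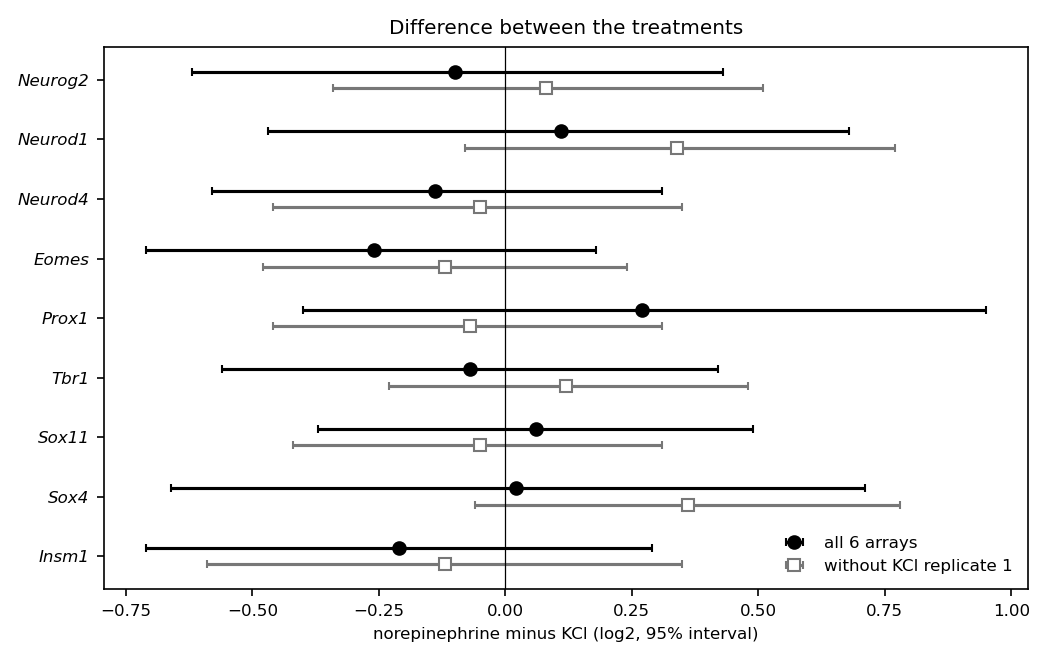
Norepinephrine minus KCl (log2) for each factor with its 95% interval from limma, on all 6 arrays (filled circles) and without KCl replicate 1 (open squares). Every interval includes 0, and the points lie between -0.26 and 0.27 on 6 arrays and between -0.12 and 0.36 without KCl replicate 1.

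What the members shared was the place of KCl replicate 1. It gave the highest value of 7 members and the lowest of 2, Prox1 and Sox11, so that 9 of 9 had it as an extreme, against 76.3% of all probe sets. It was the highest array for 51.2% of all probe sets and the lowest for 25.1%. The members read high on it were those of dim and middle brightness, and Sox4. Its distance from KCl replicates 2 and 3 was 0.53 for Neurog2, 0.72 for Neurod1, 0.25 for Neurod4, 0.42 for Eomes, 0.58 for Tbr1 and 0.27 for Insm1. In probe sets of like brightness the median distance was 0.26 to 0.54, so the sign was that of most probe sets there.

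Prox1, Sox11 and Sox4 fell in the same band of brightness, 10% of probe sets wide, in which the median distance was -0.26 and the 10th to 90th percentiles ran from -1.20 to 0.44. Prox1 at -1.04 and Sox11 at -0.33 lay inside this range. Sox4, at 1.02, lay above it and was the 1 member outside the range of its band, with 8 of 9 inside. A further quantile normalization left Sox4 at 9.40 on KCl replicate 1, against 7.94 to 8.56 on the other arrays, and Prox1 at 7.65, against 8.49 to 8.71. After it KCl replicate 1 was the extreme for 5 of 9 members, against 69.9% of all probe sets.

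**Figure D3:**
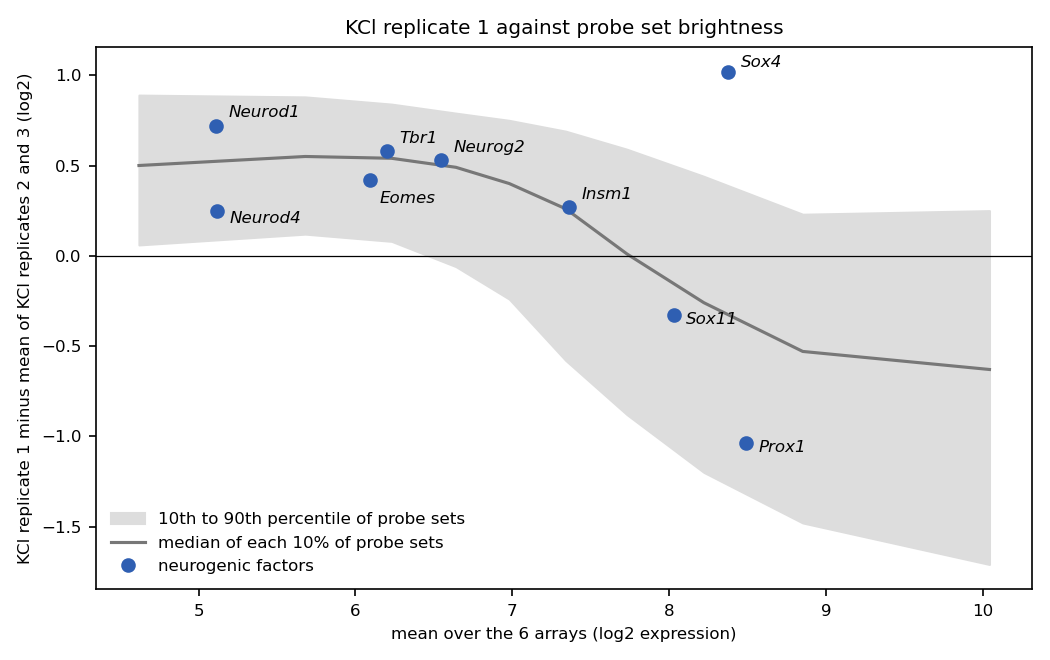
KCl replicate 1 minus the mean of KCl replicates 2 and 3 (log2) against the mean over the 6 arrays (log2 expression). The line is the median and the band the 10th to 90th percentile of named probe sets in each 10% band of brightness. The points are the 9 factors, of which Sox4, at 1.02, lies above the band.

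Without KCl replicate 1 the members divided differently. Again 4 lay above 0 and 5 below, but 2 of the 4 above 0, Neurod1 and Sox4, were above it on 6 arrays as well. Neurog2 and Tbr1 turned to above 0, and Prox1 and Sox11 to below. Of all genes 52.7% lay above 0 without that array. The groups did not overlap in 4 of 9 members, with norepinephrine higher for Neurod1, Sox4 and Tbr1 and lower for Eomes, against 16.2% of all probe sets. Neurod1, Eomes and Tbr1 were dim, at brightness percentiles 8.5, 22.2 and 24.4, while Sox4 stood at 77.6. By limma 0 of 9 were called, with an adjusted p of 1 for each, where 0.0185% of all probe sets were called. At an unadjusted p under 0.05 there were 0 of 9, against 4.63% of all probe sets. The lowest unadjusted p of that limma fit were 0.0816 for Sox4 and 0.0985 for Neurod1.

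The other genes of the programme were read in 6 lists, in which limma called 0 of 93 measured genes on 6 arrays. Of the 93, 7 or 7.53% had an unadjusted p under 0.05, against 3.43% of all probe sets. The lists were chosen with earlier results of these data known. Shares such as this, here and for single lists below, therefore cannot tell whether small p gather in them. Of the bHLH partners and relatives, 4 of 12 measured genes lay above 0, with a median of -0.14 (-0.01 without KCl replicate 1). The smallest p in this list were those of Neurod6 at -0.27 ± 0.18 and of Tcf4, an E protein that pairs with proneural factors, at 0.33 ± 0.31. Neurod6 was very dim, at brightness percentile 1.1, with means of 3.27 with norepinephrine and 3.54 with KCl. Tcf4 stood at -0.03 without KCl replicate 1, on which it read 10.07 against 10.98 to 11.28 elsewhere. Of the Sox relatives 6 of 11 lay above 0, with a median of 0.02 (0.15 without KCl replicate 1). Sox2, the factor of neural stem cell identity, stood at 0.35 ± 0.26 and 0.07 without that array. Sox9, a factor of stem cells and astrocytes, stood at 0.27 ± 0.20.

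The antagonists of bHLH factors had 5 of 11 members above 0, with a median of -0.04 (0.08 without KCl replicate 1). At an unadjusted p under 0.05 there were 3 of 11, against 3.43% of all probe sets. The groups did not overlap in 4 of 11, against 9.13% of all probe sets, with norepinephrine higher for Id3, Hey2 and Id2 and lower for Hes1. Id3, which binds E proteins and keeps them from DNA, read 8.54, 7.86 and 7.87 with norepinephrine, against 7.22, 7.59 and 7.18 with KCl. Hey2, a repressor downstream of Notch, read 6.22, 6.24 and 6.47 with norepinephrine, against 5.72, 5.61 and 5.95 with KCl. The differences were 0.76 ± 0.24 and 0.55 ± 0.19, and limma gave both an adjusted p of 0.939. Id2, named after its values were seen, stood at 0.69 ± 0.27. Without KCl replicate 1 these differences were 0.70, 0.53 and 0.43 for Id3, Hey2 and Id2. Hes1, a Notch-driven repressor of proneural genes, also named after its values were seen, read 7.52, 7.48 and 7.21 with norepinephrine, against 7.74, 7.93 and 7.65 with KCl. Its difference was -0.38 ± 0.19, and -0.39 without KCl replicate 1.

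Proneural targets and genes of newborn neurons had 15 of 30 members above 0, with a median of -0.03 (0.11 without KCl replicate 1 and -0.20 without KCl replicate 2). At an unadjusted p under 0.05 there were 3 with norepinephrine higher and 1 with it lower, against 3.43% of all probe sets. The groups did not overlap in 8 of 30, against 9.13% of all probe sets. The smallest p were those of Dpysl3, a cytoskeletal regulator of growing axons, at 0.60 ± 0.20, and of Nnat, neuronatin, at 0.49 ± 0.17. Nnat read 9.45, 9.42 and 9.51 with norepinephrine, against 9.02, 8.97 and 8.94 with KCl. The groups stood apart on it by far more than their spread, with an SD of 0.04 in each group, and KCl replicate 1 was not apart from the other KCl samples. The adjusted p was 0.939 by limma. Tubb3, neuronal tubulin, and the surface antigen Cd24a were the other two, named after their values were seen, at 0.47 ± 0.18 and -0.45 ± 0.19. Dcx, the microtubule protein of neuroblasts, likewise named outside the rule, stood at 0.15 ± 0.24, and at 0.38 without KCl replicate 1. It was dim, at brightness percentile 23.1, and KCl replicate 1 was its highest sample.

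**Figure D4:**
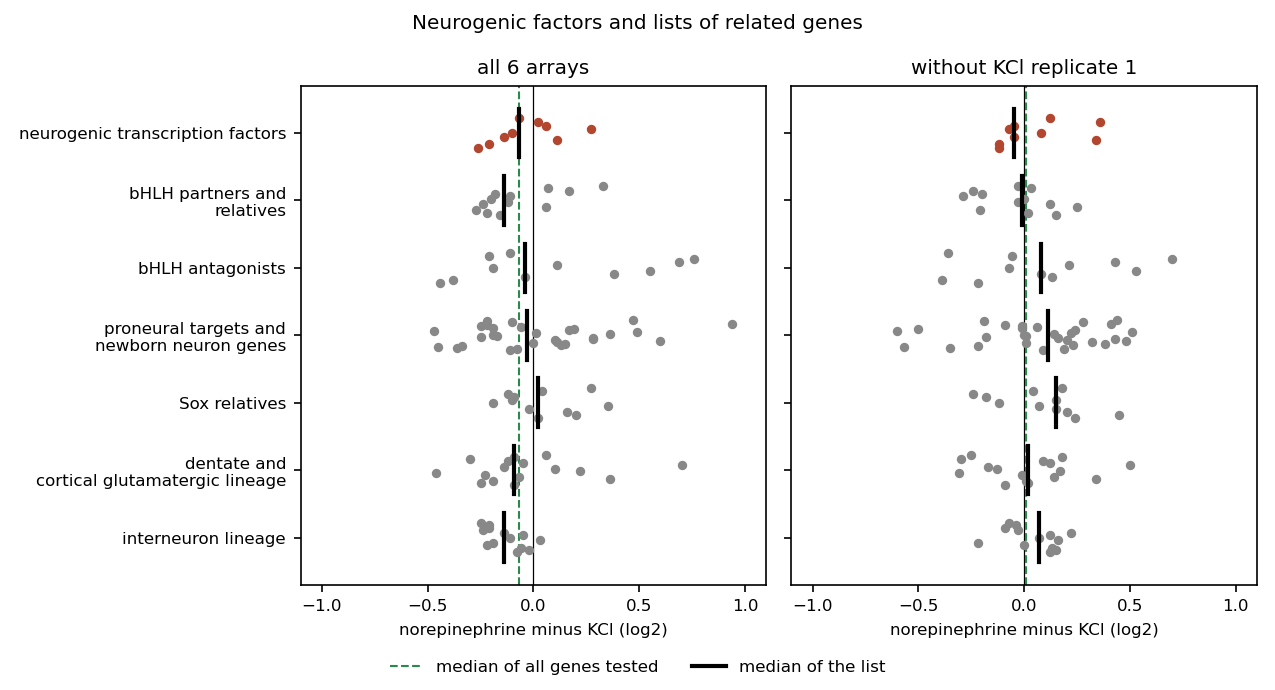
Norepinephrine minus KCl (log2) for each measured gene of the neurogenic factors (red) and of 6 lists of related genes (grey), on all 6 arrays (left) and without KCl replicate 1 (right). Black bars are list medians and the dashed line is the median of all genes tested, -0.07 on 6 arrays and 0.01 without KCl replicate 1.

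Genes of the dentate and cortical glutamatergic lineage had 5 of 16 measured members above 0, with a median of -0.09 (0.02 without KCl replicate 1). Lef1, a Wnt-pathway factor needed for dentate granule cells, stood at -0.46 ± 0.21. Its groups did not overlap, a pattern of 2 of 16 genes in this list and of 9.13% of all probe sets. Nfix, which directs hippocampal progenitors to differentiate, stood at 0.70 ± 0.36. Of the interneuron lineage 1 of 13 measured genes lay above 0, with a median of -0.14. KCl replicate 1 gave the highest value of 12 of these 13, and without it 7 lay above 0 and the median was 0.07. Sp9 and Gad1, a zinc-finger factor of interneuron precursors and an enzyme of GABA synthesis, had the smallest p, at -0.25 ± 0.23 and -0.19 ± 0.18.

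Markers of the cell types that the spheres could hold were read beside these genes. On all 6 arrays limma called 0 genes in each of these marker lists, with an adjusted p of 0.800 for Apoe and for Clu. The mean of the mature neuron list was 7.52 to 7.68 on norepinephrine arrays and 7.44 to 7.56 on KCl arrays, with a median difference of 0.07. Of that list the synaptic protein Snap25 stood at 1.03 ± 0.27 and Map2, a dendritic microtubule protein, at -0.33 ± 0.18. The groups did not overlap in these 2 of 10, against 9.13% of all probe sets. The other 8 measured markers lay between -0.08 and 0.10. The astrocyte list mean was 9.20 to 9.23 with norepinephrine and 8.33 to 8.72 with KCl, and 8 of 10 members lay above 0, Apoe at 1.20 ± 0.21 and Clu at 1.04 ± 0.18 with the smallest p. The oligodendrocyte lineage list mean was 7.41 to 7.45 with norepinephrine and 7.19 to 7.50 with KCl. In it 4 of 8 measured genes lay above 0 and 4 below, from -0.39 to 0.70, with a median difference of 0.03. Gpr17 at 0.70 ± 0.25 and Pdgfra at 0.66 ± 0.24 had the smallest p. The microglia list mean was 6.06 to 6.25 with norepinephrine, against 6.81, 6.10 and 6.30 in the order of KCl replicates 1 to 3, with Itgam at -0.42 ± 0.21 and Ptprc at -0.32 ± 0.21. The endothelial and mural list mean was 6.43 to 6.52 with norepinephrine and 6.31 to 6.74 with KCl, with Tek at -0.51 ± 0.25 and Acta2 at 0.52 ± 0.35. The stem and progenitor list mean was 9.76 to 9.92 with norepinephrine and 9.05 to 9.56 with KCl. Without Gfap, which stood at 1.89 ± 0.30, the mean of the other 9 was 9.96 to 10.06 with norepinephrine, against 9.28, 9.95 and 9.78 on KCl replicates 1 to 3. In this list 8 of 10 genes lay above 0 and 2 below, with a median difference of 0.40 (0.21 without KCl replicate 1). Hopx stood at 0.87 ± 0.26, while Nes and Fabp7, the 2 below 0, stood at -0.10 ± 0.37 and -0.15 ± 0.18. Leaving out KCl replicate 1, Gfap was the 1 gene called in any of the lists, at 2.17 (limma adjusted p = 0.045, against 0.774 on all 6 arrays). The part of these cell types in the members' values was not tested.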

How the data were processed

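The deposited values were log2 expression values per probe set, with 1 column per array. Partek and RMA are named in the submitters' processing notes. Their versions, their settings and the genome build were not given in the sources used here. Of 34760 probe sets, 21640 had a single symbol in the platform annotation, 1321 had several and 11799 had none there. A gene was read from its probe set of highest mean over the 6 arrays. Groups and replicate numbers came from the sample titles, which call each sample a biological replicate. Whether samples came from separate animals or cultures was not given in those sources, so the p-values cover only how far the samples at hand spread.

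The fit was limma 3.58.1 in R 4.3.3 (lmFit, eBayes), two-sided, with no covariate, over all 21640 probe sets adjusted by Benjamini-Hochberg and called under 0.05. It was tested on simulated data with independent noise, no array that stood apart and shifts much larger than the members' differences. That test therefore cannot tell how the fit does on differences of the members' size. Depth has no meaning for arrays, and no filter on dim values was used. Genes named beyond the 9 were the 2 of smallest p in each list and those closest to the 2 members of widest range. Outside this rule, Id2, Hes1, Tubb3, Cd24a, Dcx, Nes and Fabp7 were named after their values were seen. The members and lists were chosen with earlier results of these data known. Some entries of the lists were not analysed here. Alternatives were another normalization, centring, a brightness filter, variance moderation, array weights, a replicate block, other features and leaving out each array. Motifs were searched in RefSeq windows in Python 3.11.15.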

Additional observations from a re-analysis of the deposited data

How the results depend on the processing

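No member was called under any of the alternatives run, and the members' median difference stayed between -0.19 and 0.02. After a further quantile normalization Neurod4 stood at 0.02, Neurog2 at 0.01, Sox4 at -0.12 and Tbr1 at 0.05, each turned in direction, and KCl replicate 1 was the extreme array for 5 members in place of 9. This count was chosen after seeing the data. With gene-by-gene array weights, also chosen after seeing the data, Prox1 stood at -0.08, Sox11 at -0.07 and Tbr1 at 0.06, and 1454 probe sets, 6.72%, were called. Of the lists, 7 newborn neuron genes, 3 bHLH antagonists and 4 astrocyte, 3 stem, 2 mature neuron, 2 oligodendrocyte and 1 endothelial or mural marker were called, and 0 genes of the Sox, bHLH partner, glutamatergic, interneuron and microglia lists. Those weights were 6.76 for KCl replicate 3 and 0.158 for KCl replicate 1. The default array weights of limma did not converge and were not run further. Leaving out 1 array at a time gave -0.04 to 0.34 for Neurod1, -0.27 to 0.08 for Neurog2, -0.07 to 0.46 for Prox1, -0.05 to 0.14 for Sox11, -0.17 to 0.36 for Sox4 and -0.19 to 0.12 for Tbr1. Eomes, Insm1 and Neurod4 kept their direction there, at -0.33 to -0.12, -0.36 to -0.06 and -0.27 to -0.05. It gave 2 to 4 members above 0, with 2 when KCl replicate 2 was left out, and 0 to 4 probe sets called, with 4 when KCl replicate 1 was left out. A filter at the 30th percentile of brightness removed Neurod1, Neurod4, Eomes and Tbr1, which then have no value. The cause of these changes was not tested. Equal replicate numbers correlated in their deviations from the group means at 0.30, 0.63 and 0.09. Unlike numbers ran from -0.47 to 0.31, the highest being norepinephrine replicate 3 with KCl replicate 1. With 3 arrays a group such correlations cannot decide whether samples are paired, and the main fit did not pair them. Whether equal numbers mark a shared culture is not known. With the replicate number as a block, 0 probe sets and 0 members were called, as without it. With equal groups a block cannot change the differences, so the count of 4 members above 0 was fixed beforehand. Signal over background could not be assessed.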
